A study of Equus caballus with 8 samples.

Results

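The genes described here carry glucose carbon through glycolysis and the pentose phosphate pathway, or belong to the cellular response to low oxygen. They are 45 of the 15266 named genes of the expression table, chosen by gene symbol, and all 45 had a row and passed the filter on low values. The cells were equine mesenchymal stem cells (MSCs) from bone marrow, which are stromal cells that adhere to plastic, and the 4 donors are named by the letters D, J, L and W. The marrow of each horse was divided, giving 4 untreated libraries and 4 libraries from cells grown with 1 ng/ml of human recombinant transforming growth factor-β2 (TGF-β2, written TGF-b2 in the labels) from isolation to passage 3 or 4. Both groups were grown in low glucose DMEM with 10% fetal bovine serum and antibiotics, to which the published methods add basic fibroblast growth factor. The published methods describe the horses of the whole study as adult Thoroughbreds or Thoroughbred crosses, mares and geldings alike, and the labels give no genotype or oxygen level for either group. The labels and methods name no sort of the cells sequenced, and fewer cells of a kind and less RNA per cell cannot be told apart in such bulk samples.

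Glycolysis splits glucose into pyruvate in the cytosol, and lactate dehydrogenase with the monocarboxylate transporters disposes of that pyruvate as lactate. Pyruvate dehydrogenase kinases (PDKs) switch off the complex that turns pyruvate into the acetyl group oxidized in the mitochondria. The pentose phosphate pathway branches off after the first step and yields NADPH and ribose. Hypoxia-inducible factors (HIFs) are transcription factors whose alpha subunits are marked for destruction by oxygen-dependent prolyl hydroxylases, and many glycolytic genes are textbook HIF targets. Cultured MSCs are known for a largely glycolytic metabolism.

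Values are normalized counts, that is, a gene's reads after correction for the size factor of its library, and in every listing of 4 values the horses stand in the order D, J, L and W. The untreated libraries held 40044240 to 57228675 counted reads and the treated ones 39184554 to 46634539. Fold changes are on the scale of log2(normalized count + 1), which understates changes at low counts. Genes were tested by limma, with a trend on intensity and the horse as a block, over the 14907 genes that reached 10 normalized counts in 4 or more libraries. A gene passed with a Benjamini-Hochberg adjusted p under 0.05 over all 14907 genes, and it was called differentially expressed when its log2 fold change also exceeded 1 in either direction. All adjusted p-values of single genes given here come from that paired limma fit unless another is named. The cultures expressed the stromal markers CD44, NT5E, THY1, ENG and ITGB1 in all libraries. The summed level of 7 leukocyte and macrophage markers ran from 499 to 2642 normalized counts in untreated and from 380.0 to 732 in treated cells, with the highest value in untreated horse J, mostly CD68. Of the other 6, CSF1R reached 147, PTPRC 109.7, ITGB2 109, SPI1 52.8, ITGAM 51.7 and CD163 45.7 normalized counts at most, each in an untreated library. Of the 5 that passed the filter, ITGB2 fell by 1.48 on the log2 scale (adjusted p 0.0347) and the other 4 did not pass. Of the listed markers, 8 of 9 stromal, 7 of 10 leukocyte and macrophage, 2 of 8 endothelial and 1 of 7 erythroid ones had a row. The endothelial markers CDH5 and KDR together ran from 7.10 to 26.3 normalized counts in untreated and from 30.0 to 55.7 in treated cells. KDR rose by 2.27 on the log2 scale (adjusted p 0.0109) but reached the filter only through the treated libraries. CDH5 did not pass (adjusted p 0.264). HBA, an erythroid marker, ran from 6.09 to 41.5 normalized counts untreated and from 18.4 to 208 treated. It did not pass (adjusted p 0.171). The share of the results that such cells account for was not tested. Of 8 stromal markers 4 fell, 2 rose and 2 (CD44 and NT5E) did not pass. THY1, PDGFRA, PDGFRB and ENG fell by 2.21, 3.8, 0.71 and 0.42 on the log2 scale (adjusted p 0.00203, 0.00411, 0.0367 and 0.0409), while COL1A1 and ITGB1 rose by 2.5 and 0.91 (adjusted p 0.0172 and 0.0159).

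With the deposited normalization, most genes of the glycolytic chain and the lactate exporter genes SLC16A1 and SLC16A3 rose after TGF-β2 treatment. The glucose carrier genes SLC2A1 and SLC2A3 had opposite signs, and only SLC2A1 of these passed. Of the 9 hypoxia genes 3 rose and 4 fell. Of the 45 members, 22 rose and 9 fell, while 14 did not pass. Among all genes tested, 30.9% passed, 15.7% as higher and 15.3% as lower, against 48.9% and 20% of the members. The median log2 fold change of the members was 0.53, beside 0.01 for all genes tested. With the fold threshold, 9 members were called higher and 5 lower, where the shares of all genes were 6.83% and 7.31%. The called genes were SLC2A1, SLC2A4, SLC16A1, SLC16A3, HK2, PFKP, PDK1, BNIP3 and CA9 on the higher side and PDK4, EPAS1, EGLN3, NDRG1 and ADM on the lower side. Of these, SLC2A4 reached the filter only through the treated libraries, and at a filter of 50 normalized counts 8 members were called higher. For 21 members every treated value exceeded every untreated one and for 9 the reverse held, where each pattern was found in 13.9% of all genes tested. Going by sign alone, 25 members were higher in all 4 horses and 11 lower, beside 26.3% and 25.6% of all genes. Without the horse as a block, 20 members passed as higher and 8 as lower, where the shares of all genes were 11.6% and 11.2%.

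These counts depended on the scaling and on the horses. When every library was scaled to the same total, the log2 change of the median gene was -0.30, and 13 members passed as higher and 13 as lower in place of 22 and 9, where 8% and 35.2% of all genes passed. The share of higher members among those that passed was then 50% in place of 71.0%. The matrix genes FN1, COL1A1 and COL1A2 together made up 0.881% to 6.27% of untreated reads and 10.3% to 14.4% of treated reads, and what they contributed to the shift was not tested. With only 3 horses in the paired fit, 8 members passed as higher and 5 as lower without horse D, 7 and 5 without horse W, 17 and 6 without horse L, and 21 and 8 without horse J, where LDHA joined and ALDOA, GAPDH and PDK3 were lost. The adjusted p-values of the members lost in this way ran from 0.0503 to 0.180, and all 31 members kept their direction in each of these fits. Over all genes, 4610 passed with 4 horses and 1565, 5490, 3065 and 1420 without D, J, L and W. The 12 members that passed with any single horse left out were SLC2A1, HK1, HK2, PFKL, PFKP, PGAM1, CA9, PDK4, EPAS1, EGLN3, NDRG1 and ADM.

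**Figure D1:**
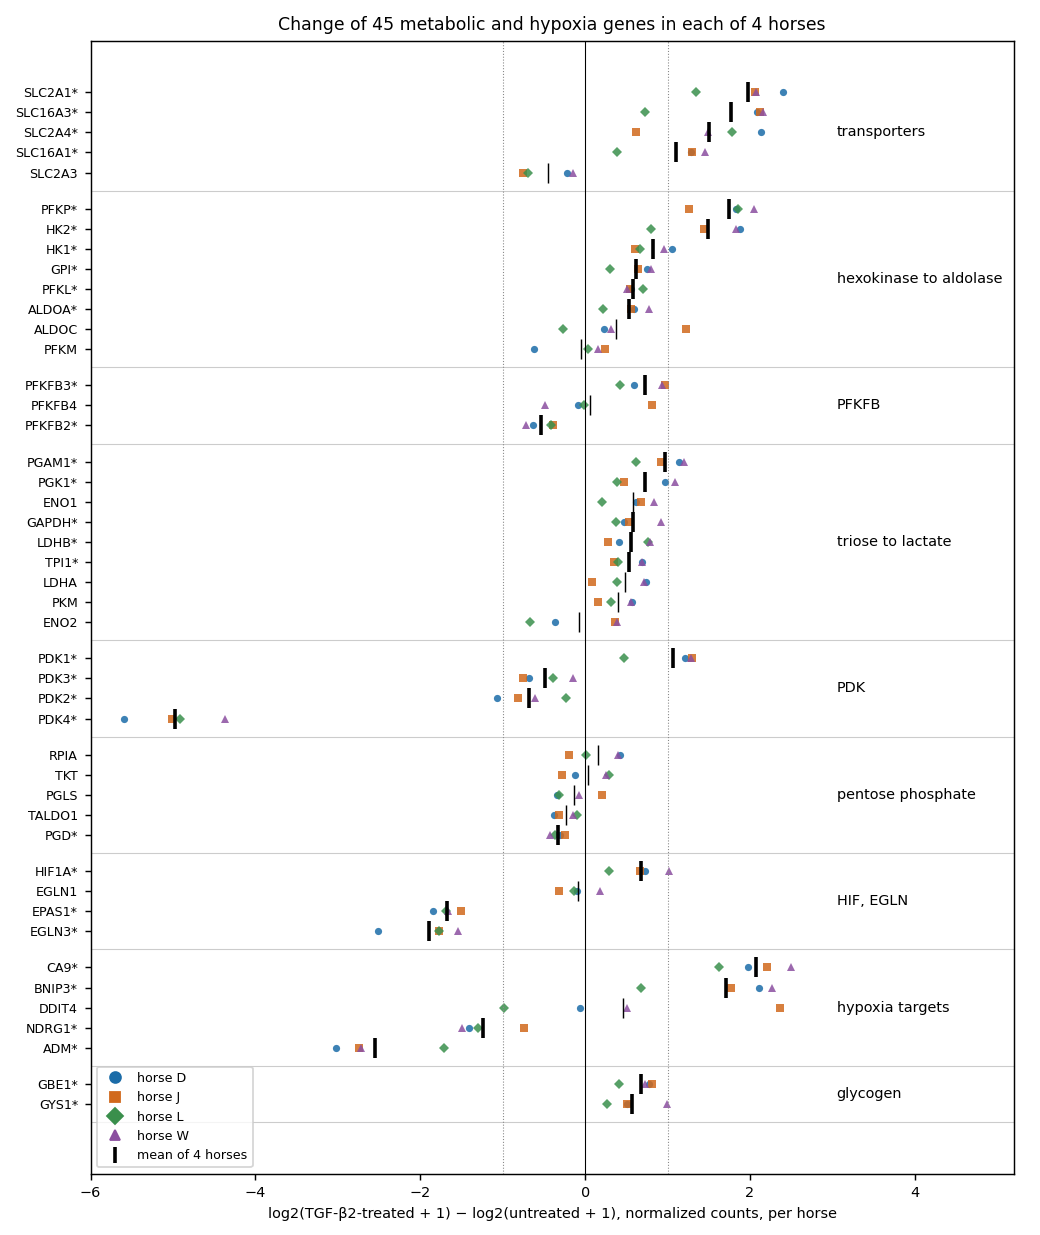
Log2 change of normalized counts after TGF-β2 treatment (x axis) for each of the 45 genes (y axis, grouped by role), with 1 symbol per horse and a bar at the mean of the 4 horses. A thick bar and a star mark the 31 genes with an adjusted p under 0.05, and the dotted lines mark a log2 change of 1 in either direction. The transporters and the glycolytic chain lie mostly to the right, PDK4 lies far to the left at -4.97, and the green diamonds of horse L are often closest to 0 among the genes that rose.

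Transporters at both ends of the pathway mostly rose. SLC2A1, SLC16A1 and SLC16A3 were called higher, where 6.83% of all genes were. SLC2A4 was called higher too, but it is not set against that share, since it reached the filter only through the treated libraries. SLC2A1 encodes GLUT1, the basal glucose carrier of most cells. SLC2A1 had 2853, 2610.2, 5450.1 and 3472 normalized counts in untreated cells and 15064, 10872, 13825 and 14633 in treated cells. Treated and untreated libraries did not overlap, and SLC2A1 rose by 1.97 on the log2 scale (standard error 0.18), a change of 3.91-fold, with an adjusted p of 0.00254. SLC2A4, the insulin-responsive carrier GLUT4 of muscle and fat, was close to the detection limit throughout. SLC2A4 had 5.22, 8.75, 5.65 and 4.06 normalized counts in untreated cells and 26.2, 13.9, 21.8 and 13.2 in treated cells. It reached the filter only through the treated libraries, so that its inclusion already required a difference, and it rose by 1.5 on the log2 scale (standard error 0.35), a change of 2.83-fold, with an adjusted p of 0.0274. SLC2A4 passed in only 1 of the 4 fits with a horse left out, and it was not tested at a filter of 50 normalized counts.

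SLC2A3, the high-affinity carrier GLUT3, had the opposite sign to SLC2A1. SLC2A3 had 9804, 15122, 10994 and 9495 normalized counts in untreated cells and 8421, 8936, 6798 and 8584 in treated cells. All 4 treated values were below all 4 untreated ones, but the change of -0.45 on the log2 scale (standard error 0.14) had an adjusted p of 0.0550 and did not pass. It passed as lower after total scaling (adjusted p 0.00833), where 35.2% of all genes did, and in DESeq2 with a horse term (adjusted p 0.0218).

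Lactate leaves the cell through the monocarboxylate transporters MCT1 (SLC16A1) and MCT4 (SLC16A3), of which MCT4 is the form typical of strongly glycolytic cells. SLC16A3 had 2419, 2244, 5982 and 3486 normalized counts in untreated cells and 10243, 9749.8, 9868 and 15541 in treated cells. The untreated library of horse L was the highest untreated one and the treated library of horse W stood far above the other treated ones. SLC16A3 rose by 1.77 on the log2 scale (standard error 0.27), a change of 3.41-fold, with an adjusted p of 0.00837. SLC16A1 had 2567, 2680.3, 5168 and 3077 normalized counts in untreated cells and 6226, 6605, 6759.7 and 8428 in treated cells. SLC16A1 rose by 1.10 on the log2 scale (standard error 0.19), a change of 2.15-fold, with an adjusted p of 0.0119. Both genes rose in all 4 horses, least in horse L, where the log2 changes were 0.72 and 0.39. SLC16A3 was lost without horse W, and SLC16A1 was lost without horse D or W.

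Of the 17 genes that encode the enzymes from hexokinase to lactate dehydrogenase, 11 rose and 6 did not pass. Among all genes tested, 15.7% passed as higher and 15.3% as lower. Limma passed 0 of them as lower, and this number was also 0 at an unadjusted p under 0.05, with DESeq2 and with edgeR. Their median log2 fold change was 0.58. After total scaling 4 of the 17 passed as higher, HK1, HK2, PFKP and PGAM1, where 8% of all genes did. Their median was then 0.26, where the median gene stood at -0.30.

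The hexokinases trap glucose in the cell by phosphorylation, HK1 as the widely expressed form and HK2 as the inducible one. HK2 had 1509, 2298, 4825 and 2424 normalized counts in untreated cells and 5555, 6255, 8396 and 8589 in treated cells. HK2 was lowest in untreated horse D and highest in untreated horse L, and all treated values lay above these. HK2 rose by 1.49 on the log2 scale (standard error 0.19), a change of 2.80-fold, with an adjusted p of 0.00584. HK1 had 10343, 13569, 13321 and 10446 normalized counts in untreated cells and 21547, 20699, 21171 and 20211 in treated cells. The 4 treated libraries of HK1 were nearly equal, from 20211 to 21547. HK1 rose by 0.82 on the log2 scale (standard error 0.11), a change of 1.77-fold, with an adjusted p of 0.00652.

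Phosphofructokinase makes fructose 1,6-bisphosphate, the committed step of glycolysis, and its 3 isoforms did not move alike. PFKP is the platelet form, PFKL the liver form and PFKM the muscle form. PFKP had 5799, 7771, 6382 and 5753 normalized counts in untreated cells and 20596, 18581, 23146 and 23871 in treated cells. PFKP had the largest change of the 17 enzymes in log2 terms, and it rose by 1.75 on the log2 scale (standard error 0.15), a change of 3.36-fold, with an adjusted p of 0.00210. PFKL had 8711, 7260.5, 7428 and 8424 normalized counts in untreated cells and 12771, 10618, 12078 and 11968 in treated cells. PFKL rose by 0.58 on the log2 scale (standard error 0.08), a change of 1.49-fold, with an adjusted p of 0.00669, and its change was among the most even between horses, 0.51 to 0.70. PFKM averaged 2151 ± 359 normalized counts untreated and 2079.9 ± 348 treated (SD, n = 4), with a log2 difference of -0.05 (standard error 0.16) and an adjusted p of 0.836, and its groups overlapped.

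GPI, the isomerase between the hexokinase and phosphofructokinase steps, rose modestly in every horse. GPI had 13674, 14968, 18226 and 15727 normalized counts in untreated cells and 22981, 23281, 22412 and 27231 in treated cells. GPI rose by 0.62 on the log2 scale (standard error 0.12), a change of 1.54-fold, with an adjusted p of 0.0151. Aldolase splits fructose 1,6-bisphosphate into triose phosphates. ALDOA had 58569, 70834, 83085 and 69859.6 normalized counts in untreated cells and 88101, 104115, 96552 and 119602 in treated cells. ALDOA, the main aldolase of muscle and most cultured cells, rose by 0.53 on the log2 scale (standard error 0.15), a change of 1.45-fold, with an adjusted p of 0.0457, but its adjusted p in the fit without a block was 0.0526, and it did not pass in any fit of 3 horses. ALDOC had 2341, 1059.7, 3378 and 2829.7 normalized counts in untreated cells and 2737, 2469.8, 2795 and 3513 in treated cells. ALDOC, the brain form, had log2 changes of 0.23, 1.22, -0.27 and 0.31, and it did not pass (adjusted p 0.281).

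The bifunctional PFKFB enzymes set the level of fructose 2,6-bisphosphate, the strongest activator of phosphofructokinase, and they divided by isoform. PFKFB3 is the form with the highest kinase activity. PFKFB3 had 6343, 6143, 8659 and 6185 normalized counts in untreated cells and 9548, 12002, 11552 and 11762 in treated cells. Untreated horse L stood above the other untreated libraries, and PFKFB3 rose by 0.72 on the log2 scale (standard error 0.12), a change of 1.65-fold, with an adjusted p of 0.0111. PFKFB2 had 273, 319, 320.4 and 308 normalized counts in untreated cells and 175, 243, 239 and 187 in treated cells. PFKFB2, the heart form, fell by 0.54 on the log2 scale (standard error 0.14), a change of 1.46-fold, with an adjusted p of 0.0328. PFKFB4 averaged 269 ± 74.7 normalized counts untreated and 273 ± 29.6 treated (SD, n = 4), with log2 changes of -0.08, 0.81, -0.02 and -0.48, and it did not pass (adjusted p 0.872). PFKFB2 was lost without horse D, L or W and PFKFB3 without horse D or W.

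The lower part of the pathway, from triosephosphate isomerase (TPI1) to lactate dehydrogenase, holds genes with many reads in these cells. Each of TPI1, GAPDH, PGK1, PGAM1, ENO1, PKM, LDHA and LDHB was higher in all 4 horses. PGAM1, the phosphoglycerate mutase, changed the most. PGAM1 had 18492, 25137, 28550.0 and 20480.5 normalized counts in untreated cells and 40606, 47481, 43622 and 47055 in treated cells. PGAM1 rose by 0.97 on the log2 scale (standard error 0.13), a change of 1.95-fold, with an adjusted p of 0.00674, just short of the fold threshold. PGK1 makes the first ATP of the pathway. PGK1 had 20389.5, 27238, 33189.7 and 20597 normalized counts in untreated cells and 39729, 37714, 43271 and 43884 in treated cells. Horse L had the highest untreated value, and PGK1 rose by 0.73 on the log2 scale (standard error 0.16), a change of 1.65-fold, with an adjusted p of 0.0229. TPI1 had 21688, 25256, 24268 and 20349.6 normalized counts in untreated cells and 35073, 32098, 31888 and 32867 in treated cells. TPI1 rose by 0.53 on the log2 scale (standard error 0.11), a change of 1.45-fold, with an adjusted p of 0.0209. PGK1 and GPI did not pass without horse D or W, nor TPI1 without horse D, L or W.

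GAPDH, often used as a loading and qPCR reference, was higher in all 4 horses with the deposited normalization but passed only narrowly. GAPDH had 97599, 114046, 107098 and 88556 normalized counts in untreated cells and 135347, 165289, 138668 and 168061 in treated cells. All treated libraries were above all untreated ones, and GAPDH rose by 0.58 on the log2 scale (standard error 0.17), a change of 1.49-fold, with an adjusted p of 0.0497. The result was near the limit, with an adjusted p of 0.0413 without the block and 0.247 after total scaling, where the log2 change was 0.26. GAPDH did not pass in any fit of 3 horses. The authors counted uniquely mapped reads, and GAPDH, like several glycolytic genes, has near-identical processed copies in mammalian genomes, so its level is uncertain.

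ENO1, PKM and LDHA did not pass although their groups did not overlap. ENO1 had 107335, 101661, 137687 and 99811 normalized counts in untreated cells and 163945, 161981, 159075 and 178114 in treated cells. ENO1, the ubiquitous enolase, had a log2 difference of 0.58 (standard error 0.18) and an adjusted p of 0.0558, and it passed without the block (adjusted p 0.0428). PKM, the pyruvate kinase of most tissues, averaged 89258 ± 10865 normalized counts untreated and 116964 ± 2908 treated (SD, n = 4), with a log2 difference of 0.40 (standard error 0.15) and an adjusted p of 0.100. LDHA had 68144, 96783, 74058 and 64001 normalized counts in untreated cells and 113326, 102327, 96934 and 105251 in treated cells. LDHA, the subunit that favours lactate formation, had a log2 difference of 0.48 (standard error 0.17) and an adjusted p of 0.0830, and in horse J it was nearly level, at 0.08. DESeq2 with the horse as a term passed all of these, with adjusted p-values of 6.15e-04 for ENO1, 0.00740 for PKM and 0.0128 for LDHA. LDHB had 7015, 10575, 6637 and 6407 normalized counts in untreated cells and 9292, 12807, 11209 and 11067 in treated cells. LDHB, the heart subunit, rose by 0.56 on the log2 scale (standard error 0.12), a change of 1.47-fold, with an adjusted p of 0.0212. The groups of LDHB overlapped because untreated horse J was high, its adjusted p was 0.0547 without the block, and it was lost without horse D, L or W. ENO2 had 9091, 2459, 7764 and 5067 normalized counts in untreated cells and 7044, 3151, 4862 and 6629 in treated cells. ENO2, the neuronal enolase, showed no common direction, with log2 changes of -0.37, 0.36, -0.68 and 0.39 (adjusted p 0.807).

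**Figure D2:**
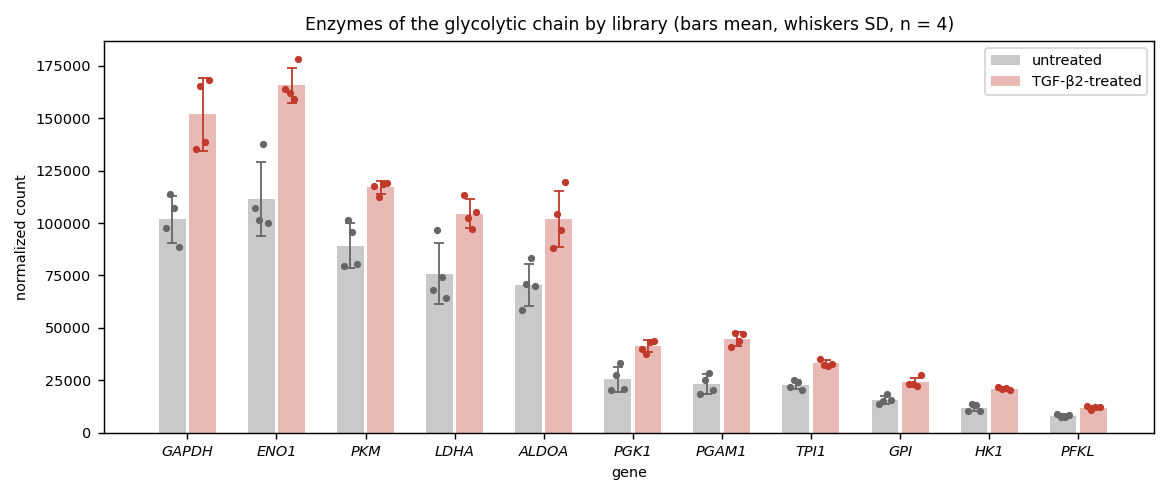
Normalized counts (y axis) of 11 enzymes of the glycolytic chain (x axis) in untreated and TGF-β2-treated cells, with bars at the mean, whiskers of 1 SD and 1 point per library (n = 4 per group). Each treated group drawn lies above its untreated group, from 135347 to 168061 against 88556 to 114046 for GAPDH. This held for 13 of the 17 chain enzymes, beside 13.9% of all genes tested. PFKM, ALDOC, ENO2 and LDHB, whose groups overlapped, are not drawn, and ENO1, PKM and LDHA did not pass. Counts were not divided by gene length, so that heights compare groups and not genes.

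Together the 17 chain enzymes amounted to 1.46% ± 0.153 of all counted reads in untreated and 1.75% ± 0.144 in treated cells (SD, n = 4). Their summed normalized counts were 1.57, 1.38, 1.28 and 1.78 times the untreated value in horses D, J, L and W. The 5 pentose phosphate enzymes together had ratios of 0.828, 0.846, 0.945 and 0.933. All 4 horses thus showed a normalized sum above the untreated one for the chain and below it for the pentose phosphate enzymes. The size of this depended on the scaling. As a share of counted reads, the chain was nearly level in horse L, at 1.557% untreated and 1.560% treated. These sums are descriptions of the chosen genes and were not tested.

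The 4 pyruvate dehydrogenase kinases all passed, 1 upwards and 3 downwards, where 30.9% of all genes passed. These kinases phosphorylate and switch off the pyruvate dehydrogenase complex, PDK1 as a classical HIF-1 target and PDK4 as the form induced by fasting and fatty acids. PDK4 had 565, 482, 169 and 515 normalized counts in untreated cells and 10.7, 13.9, 4.60 and 24.0 in treated cells. PDK4 fell by 4.97 on the log2 scale (standard error 0.25), a change of 31.4-fold, with an adjusted p of 0.0010. This was the largest change of any member, and PDK4 in treated cells ranged down to 4.60 normalized counts in horse L. PDK1 had 4606, 3779.7, 7619 and 5048 normalized counts in untreated cells and 10654, 9258, 10575 and 12279.5 in treated cells. PDK1 rose by 1.06 on the log2 scale (standard error 0.16), a change of 2.09-fold, with an adjusted p of 0.00864, with the smallest rise, 0.47, in horse L, whose untreated library was the highest. PDK2 had 2642, 1739, 1597 and 1751 normalized counts in untreated cells and 1259, 989, 1363 and 1147 in treated cells. PDK2, the widely expressed form, fell by 0.68 on the log2 scale (standard error 0.15), a change of 1.60-fold, with an adjusted p of 0.0236. PDK3 had 2472, 1660.3, 1389 and 1522 normalized counts in untreated cells and 1544, 979.6, 1063 and 1372 in treated cells. PDK3 fell by 0.49 on the log2 scale (standard error 0.13), a change of 1.41-fold, with an adjusted p of 0.0367, but its groups overlapped and its adjusted p was 0.136 without the block. PDK1 and PDK2 were lost without horse D or W, and PDK3 in every fit of 3 horses.

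Pentose phosphate enzymes showed small differences. Of the 5 members, limma passed 1 as lower and 0 as higher, and the number higher was also 0 at an unadjusted p under 0.05, with DESeq2 and with edgeR. Beside the 15.3% and 15.7% of all genes that passed as lower and higher, counts this small in 5 genes show nothing particular to the pathway. PGD, the 6-phosphogluconate dehydrogenase of the oxidative branch, was the gene that fell. PGD had 7112, 7061, 6424 and 6595 normalized counts in untreated cells and 5769.6, 5937, 4988 and 4905 in treated cells. The untreated values were close together and all treated values lay below them, and PGD fell by 0.34 on the log2 scale (standard error 0.08), a change of 1.26-fold, with an adjusted p of 0.0252. PGD was lost without horse D, L or W. TALDO1 (transaldolase) averaged 9263 ± 1909 normalized counts untreated and 7789 ± 1008 treated (SD, n = 4) and was lower in all 4 horses, by 0.10 to 0.38 on the log2 scale, with an adjusted p of 0.0929. TKT (transketolase), PGLS (6-phosphogluconolactonase) and RPIA (ribose 5-phosphate isomerase) had log2 differences of 0.04, -0.14 and 0.16 with signs that differed between horses, and adjusted p-values of 0.839, 0.411 and 0.453. After total scaling the median gene stood at -0.30 and 35.2% of all genes passed as lower. PGD, TALDO1 and PGLS then passed as lower, with log2 changes of -0.65, -0.55 and -0.45. The signs of TKT and RPIA turned negative, at -0.27 and -0.15, less far down than the median gene.

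Both glycogen genes among the members rose, where 15.7% of all genes did, while of 22 other glycogen and sugar nucleotide genes 1 rose and 4 fell. GBE1 had 1208, 1169, 1235 and 1739 normalized counts in untreated cells and 2074, 2053, 1640.5 and 2879 in treated cells. GBE1, the branching enzyme of glycogen, rose by 0.68 on the log2 scale (standard error 0.10), a change of 1.60-fold, with an adjusted p of 0.00800. GYS1 had 2671, 3376, 4651 and 3284 normalized counts in untreated cells and 3796, 4803, 5569.9 and 6509 in treated cells. GYS1, the muscle glycogen synthase, rose by 0.57 on the log2 scale (standard error 0.13), a change of 1.48-fold, with an adjusted p of 0.0271, and its adjusted p was 0.0856 without the block. In both genes the groups overlapped because 1 untreated library, of horse W for GBE1 and of horse L for GYS1, stood high, and both were lost without horse D or W. After total scaling the adjusted p was 0.0458 for GBE1 and 0.154 for GYS1.

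The 2 HIF alpha subunits moved in opposite directions. HIF1A encodes HIF-1α, which drives most glycolytic HIF targets, and EPAS1 encodes HIF-2α. HIF1A had 15439.6, 17174, 25720.3 and 18069.9 normalized counts in untreated cells and 25489, 27164, 31407 and 36686 in treated cells. HIF1A was higher in every horse, and it rose by 0.67 on the log2 scale (standard error 0.14), a change of 1.60-fold, with an adjusted p of 0.0198. Its groups overlapped, since untreated horse L was as high as treated horse D, and it was lost without horse D or W and after total scaling (adjusted p 0.0869). EPAS1 had 27622, 23189.9, 18584 and 29645 normalized counts in untreated cells and 7691, 8128, 5742 and 9317 in treated cells. EPAS1 fell by 1.68 on the log2 scale (standard error 0.09), a change of 3.2-fold, with an adjusted p of 0.00112. Its change was even between horses, from -1.84 to -1.51. These are transcript levels, and HIF-α protein, which is set mainly by hydroxylation, was not measured.

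The prolyl hydroxylases that mark HIF-α for destruction differed from each other. EGLN3 (PHD3) is itself induced by HIF in most cells. EGLN3 had 297, 72.0, 226 and 138 normalized counts in untreated cells and 51.2, 20.3, 65.5 and 46.9 in treated cells. Horse J was the lowest in both groups, and EGLN3 fell by 1.9 on the log2 scale (standard error 0.23), a change of 3.73-fold, with an adjusted p of 0.00455. EGLN1 (PHD2), the main oxygen sensor of the family, averaged 2899 ± 283 normalized counts untreated and 2759 ± 612 treated (SD, n = 4), with a log2 difference of -0.09 (standard error 0.10) and an adjusted p of 0.534. Its sign differed between horses, at 0.18 in horse W and below 0 in the others. After total scaling EGLN1 passed as lower, at -0.40 (adjusted p 0.0193), where the median gene stood at -0.30 and 35.2% of all genes passed as lower.

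Hypoxia targets were divided, 2 called higher, 2 called lower and 1 that did not pass. Of all genes, 6.83% were called higher and 7.31% lower. CA9, a membrane carbonic anhydrase that exports acid and is among the most specific HIF-1 targets, rose in every horse. CA9 had 1157, 566, 1068 and 866 normalized counts in untreated cells and 4538, 2608, 3288 and 4905 in treated cells. CA9 rose by 2.07 on the log2 scale (standard error 0.15), a change of 4.21-fold, with an adjusted p of 0.00166, and every treated value was above every untreated one. BNIP3 encodes a mitophagy receptor. BNIP3 had 5020.4, 6094, 13973 and 6326 normalized counts in untreated cells and 21708, 20847, 22359.9 and 30424 in treated cells. Untreated horse L was far above the other untreated libraries and rose least, by 0.68. BNIP3 rose by 1.71 on the log2 scale (standard error 0.27), a change of 3.27-fold, with an adjusted p of 0.00985, and it was lost without horse D or W.

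ADM and NDRG1 went the other way. ADM encodes adrenomedullin, a vasodilator peptide. ADM had 9430.0, 8482, 2357 and 10106 normalized counts in untreated cells and 1161, 1269.7, 715 and 1539 in treated cells. Untreated horse L stood well below the other untreated cultures, yet all treated values lay below it. ADM fell by 2.55 on the log2 scale (standard error 0.22), a change of 5.85-fold, with an adjusted p of 0.00226. NDRG1 had 39281, 16507, 26212 and 33495 normalized counts in untreated cells and 14826, 9885, 10634 and 11857 in treated cells. NDRG1, a stress- and differentiation-linked gene, fell by 1.24 on the log2 scale (standard error 0.15), a change of 2.36-fold, with an adjusted p of 0.00472. DDIT4 (REDD1), an inhibitor of the growth kinase complex mTOR that answers hypoxia and many other stresses, had 6312, 1909, 15492 and 6577 normalized counts in untreated cells and 6066, 9792, 7830.0 and 9378 in treated cells. Its untreated values spanned 8.12-fold between horses J and L, its log2 changes were -0.06, 2.36, -0.98 and 0.51, and it did not pass (adjusted p 0.536).

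**Figure D3:**
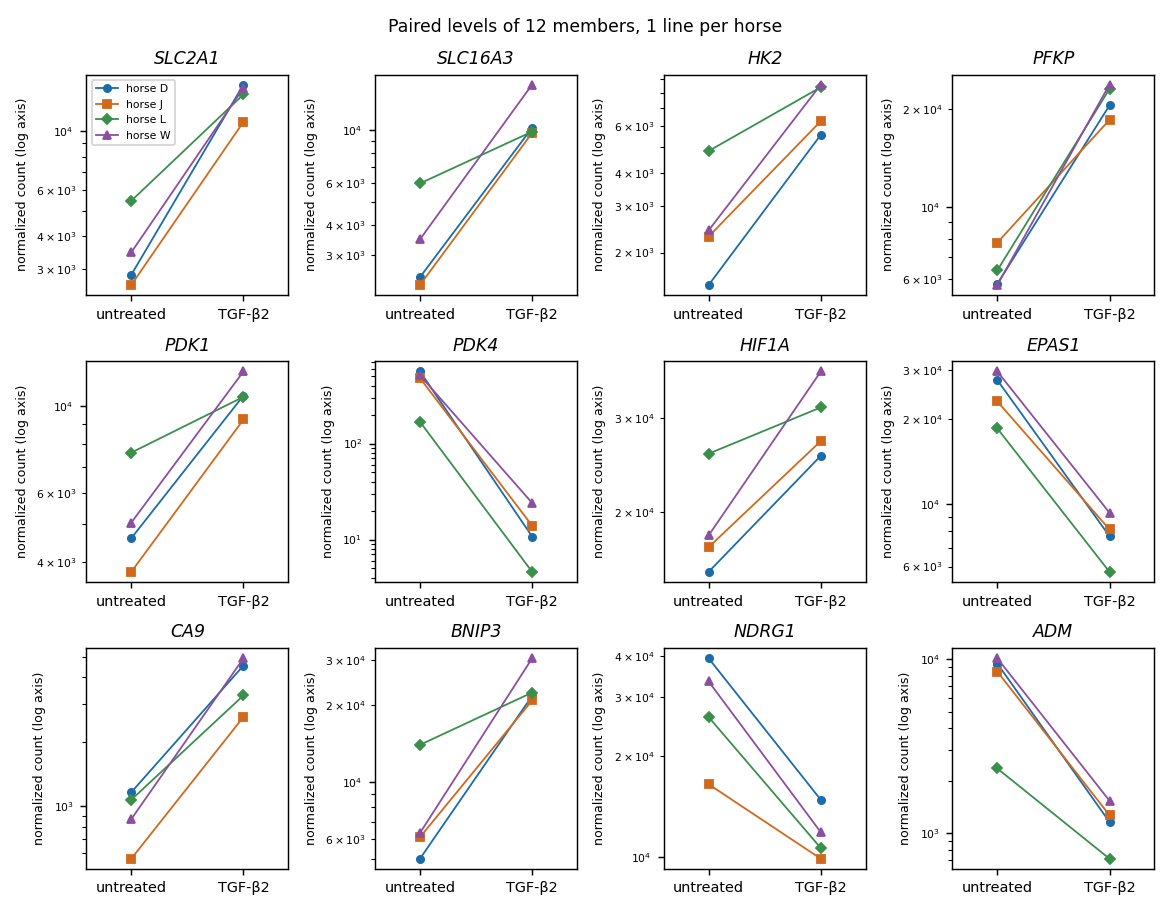
Normalized counts on a log axis (y axis) of 12 members in untreated and TGF-β2-treated cells (x axis), with 1 line per horse. Lines rise in all 4 horses for SLC2A1, SLC16A3, HK2, PFKP, PDK1, HIF1A, CA9 and BNIP3 and fall in all 4 for PDK4, EPAS1, NDRG1 and ADM. The green line of horse L starts above the others for SLC2A1, SLC16A3, HK2, PDK1, HIF1A and BNIP3, and below them for PDK4, EPAS1 and ADM.

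Ratios of related genes within a library do not depend on its scaling, and 6 were compared by a two-sided exact permutation test of 4 treated against 4 untreated libraries, adjusted over the 6. The smallest p this design allows is 0.0286. This test does not use the pairing by horse, since an exact test on 4 pairs cannot give a p below 1 in 8, so the change in each horse is given as a description. The ratios are of reads not divided by length, so their change and not their size is of use. The log2 ratio of HIF1A to EPAS1 was -0.84, -0.43, 0.47 and -0.71 in untreated cells and 1.73, 1.74, 2.45 and 1.98 in treated cells. It was higher by 2.57, 2.17, 1.98 and 2.69 in the 4 horses, 2.35 on average, without overlap (exact p = 0.0286, adjusted 0.0857). That of SLC16A3 to SLC16A1 was -0.09, -0.26, 0.21 and 0.18 in untreated and 0.72, 0.56, 0.55 and 0.88 in treated cells, with changes of 0.80, 0.82, 0.33 and 0.70 and a mean difference of 0.66 without overlap (exact p = 0.0286, adjusted 0.0857). Both had the smallest p this unpaired test can give, which the adjustment over 6 ratios moved above 0.05.

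The ratio of HK2 to HK1 was higher in all 4 horses, by 0.82, 0.84, 0.13 and 0.87 on the log2 scale, but the groups overlapped (exact p = 0.114, adjusted 0.229). That of ENO2 to ENO1 fell short of its untreated value in every horse, the log2 changes being -0.98, -0.31, -0.88 and -0.45 (exact p = 0.200, adjusted 0.300). LDHA to LDHB changed by 0.33, -0.20, -0.37 and -0.07 and ALDOC to ALDOA by -0.36, 0.66, -0.49 and -0.46, and in neither did the difference pass the test (exact p = 0.629 and 0.743, both 0.743 after adjustment). The subunit ratio of lactate dehydrogenase was lower in 3 horses and higher in horse D.

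**Figure D4:**
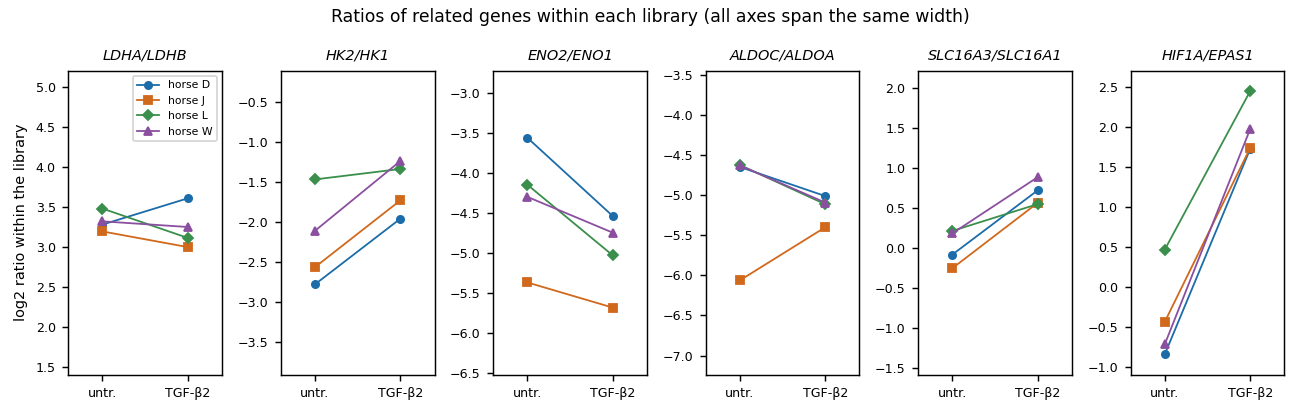
Log2 ratio of the normalized counts of related genes within each library (y axis, the same width in all panels) in untreated and TGF-β2-treated cells (x axis), with 1 line per horse. The ratio of HIF1A to EPAS1 rises steeply in all 4 horses, from between -0.84 and 0.47 to between 1.73 and 2.45, whereas the lines for LDHA to LDHB cross.

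The spread between horses was mostly wider in untreated cells. The SD of log2 normalized counts over the 4 horses was larger in untreated than in treated cells for 36 of the 45 members, 80%, and for 65.9% of all genes tested. The median SD was 0.32 untreated and 0.20 treated for the members, and 0.33 and 0.23 for all genes. DDIT4 had the widest spread in untreated cells, an SD of 1.24 against 0.31 in treated cells. Horse L stood out among the genes that rose. In 16 of the 22 members that rose, 72.7%, the smallest change was in horse L, which held for 40.5% of the 2334 genes that rose in all. The untreated library of horse L had the highest untreated value in 13 of the 22, 59.1%, against 43.9% of all genes that rose. The median log2 change of the 22 members was 1.01, 0.74, 0.54 and 1.06 in horses D, J, L and W. These counts describe 4 donors and were not tested.

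Genes of the same pathways outside the 45 members were counted in the same fit, where 15.7% of all genes passed as higher and 15.3% as lower. Of 21 tested genes among other glycolytic isozymes and transporters, 2 rose (9.52%) and 4 fell (19.0%), near those shares, with a median log2 fold change of 0.08. TXNIP, a glucose-induced arrestin that restrains glucose uptake, fell the most. TXNIP had 4802, 4068, 4595 and 4712 normalized counts in untreated cells and 42.9, 171, 42.5 and 20.4 in treated cells. TXNIP fell by 6.46 on the log2 scale (standard error 0.51), a change of 88.0-fold, with an adjusted p of 0.00180. SLC2A9, a urate and sugar carrier, had a log2 fold change of -1.57 (adjusted p 0.00197). HK3 had 13.9, 18.9, 17 and 12.2 normalized counts in untreated cells and 7.15, 3.21, 4.60 and 3.60 in treated cells. HK3, a hexokinase of blood cells and the remaining gene called, reached the filter only through the untreated libraries, so that its inclusion already required a difference.

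Pyruvate import and the pyruvate dehydrogenase complex had 1 of 11 genes higher and 2 lower, with a median of -0.09, and these counts too were near the shares of all genes. In the tricarboxylic acid cycle, which oxidizes the acetyl group made from pyruvate, 8 of 21 genes fell and 1 rose, and the median was -0.19. The share that fell, 38.1%, stood beside 15.3% of all genes, but without the block 2 fell, where 11.2% of all genes did. Of 10 other pentose phosphate and ribose genes, 2 rose and 1 fell, and of 22 other glycogen and sugar nucleotide genes 1 rose and 4 fell. With so few genes, neither count is set apart from the shares of all genes. PYGL, the liver-type glycogen phosphorylase, was the glycogen gene called, with averages of 5481 ± 1031 normalized counts untreated and 12372 ± 2445 treated (SD, n = 4) and an adjusted p of 0.00747. Among 10 genes of gluconeogenesis and redox shuttles 3 rose and 1 fell, again too few to read against those shares. PCK2, the mitochondrial phosphoenolpyruvate carboxykinase, had a log2 fold change of 1.34 and GPD1L, a glycerol phosphate dehydrogenase-like protein, of -1.26 (adjusted p 0.0181 and 0.00842).

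The other HIF pathway and hypoxia target genes had 15 of 36 higher (41.7%) and 5 lower (13.9%), beside 15.7% and 15.3% of all genes, and a median log2 fold change of 0.22. CA12, a second HIF-linked membrane carbonic anhydrase, went against CA9. CA12 had 2005, 6924, 978 and 2027 normalized counts in untreated cells and 35.7, 28.9, 11.5 and 113 in treated cells. CA12 fell by 6.02 on the log2 scale (standard error 0.57), a change of 64.8-fold, with an adjusted p of 0.00285. STC2 encodes stanniocalcin-2, a stress-induced glycoprotein. STC2 had 749, 1159, 3296 and 1469 normalized counts in untreated cells and 17797, 7587, 30615 and 41762 in treated cells. STC2 rose by 3.83 on the log2 scale (standard error 0.38), a change of 14.2-fold, with an adjusted p of 0.00309. FAM162A, P4HA1 (a collagen prolyl hydroxylase subunit) and VLDLR (a lipoprotein receptor) rose by 1.28, 1.16 and 1.15 on the log2 scale, and the receptor gene GPR146 fell by 1.38 (adjusted p 0.00881, 0.0187, 0.0376 and 0.0387). Without the block 8 of the 36 were higher and 3 lower, where 11.6% and 11.2% of all genes passed, and after total scaling 7 and 10, where 8% and 35.2% passed.

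**Figure D5:**
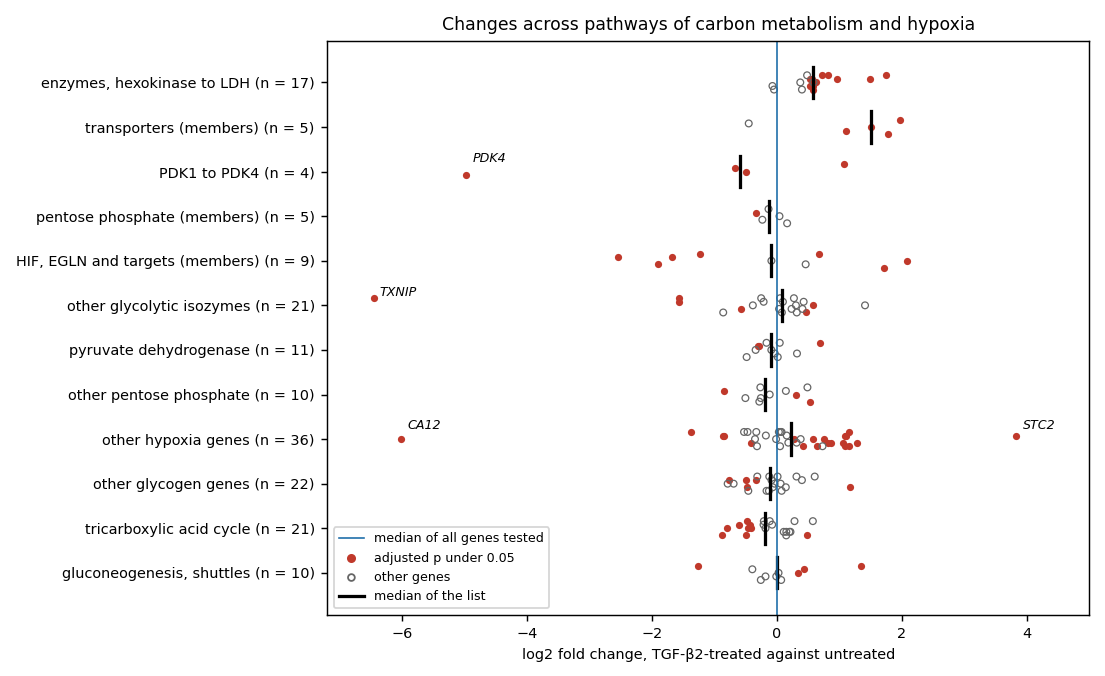
Log2 fold change of each tested gene (x axis) in the member groups and in 7 further lists (y axis, with the number of genes), where filled points have an adjusted p under 0.05, black bars are list medians and the blue line is the median of all genes tested. Of the chain enzymes 15 of 17 and of the transporters 4 of 5 lie to the right of the blue line. The median of the chain enzymes is 0.58. That of the transporters, 1.5, is the value of SLC2A4, which reached the filter only through the treated libraries. The median of the tricarboxylic acid cycle lies slightly to the left of the blue line. PDK4, TXNIP, CA12 and STC2 are the 4 genes beyond 3 in either direction.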

How the data were processed

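RNA sequencing libraries of untreated and TGF-β2-treated cells of 4 horses (n = 4 per group) were analysed. The authors used Trimmomatic 0.36 for trimming and STAR 2.5.2b for alignment to EquCab 3.0, counted uniquely mapped reads per gene with featureCounts (Subread 1.5.2) and normalized them with DESeq2. The deposited signal values are these normalized counts, in 1 table of the whole series. The strand setting is not given in the sources used here, so overlapping and antisense genes may share reads. In each library 100% of values were whole multiples of 1 step (tolerance 0.001), from which read counts were recovered. The 1 row without a gene name, 0.0281% to 0.0531% of reads, was left out. No genome or sequence of that build was used, so no sequences or coordinates are given and levels are not compared between genes.

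Normalized counts were tested as log2(value + 1) with limma 3.58.1 (lmFit and eBayes with trend, R 4.3.3), over genes with 10 or more normalized counts in 4 or more of 8 libraries. The horse was a block, because each marrow was divided between the groups. The published methods call the samples paired but name no donor term. Deviations from the group means correlated between the 2 libraries of a horse (mean r 0.480, lowest 0.386, highest 0.609). The fit without the block is given beside each member whose call it changes. Alternatives were other pseudocounts (0.5 and 5), filters (0 and 50 normalized counts), scalings, no trend, a stricter threshold, 3 horses, and count tests on recovered reads with edgeR 4.0.16 (4426 genes passed) and DESeq2 1.42.0 (5787 genes passed), each with the horse as a term. Ratios were compared by exact permutation (numpy 2.4.6).

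The 45 members and all lists were chosen with earlier results of these data known. Every member is named, with values per library for those that passed, that enter a ratio or whose call the block changes. Of the other lists, genes that passed with a log2 fold change over 1 in either direction are named, at most 6 per list by size. A few members that did not pass are also given per library, chosen after their values were seen. On simulated counts for 15108 genes, 200 of 200 genes changed by 2 on the log2 scale were recovered by the paired limma fit, with 2 other calls. That simulation held no smaller changes, so recovery near the members' median log2 change of 0.53 was not tested. A count of 0 allows 3 reads, which is 2.02 to 3.60 normalized counts, for counting error only. The p-values of the paired fits rest on the spread of the treatment change between these 4 horses, with 1 library per horse and condition. Those of the fit without the block and of the ratios rest on the spread between the 4 donors' cultures. In the limma fits, eBayes also drew the spread of each gene toward a trend over all genes tested. The standard errors given are these moderated ones and not those of the 4 changes alone.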

Additional observations from a re-analysis of the deposited data

Results flagged for a closer look

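In 9 of the 90 groups of 4 libraries (45 genes in untreated and in treated cells), 1 library stood apart from the other 3 by more than Dixon's 95% critical value for the gap over the range. About 4.5 such groups are expected by chance, since about 1 group in 20 is marked.

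The untreated library of horse L was high for PFKFB3, an activator of phosphofructokinase, at 8659 normalized counts beside 6143 to 6343 in the others. It was also high for the mitophagy receptor gene BNIP3, at 13973 beside 5020 to 6326. The treated library of horse W was high for BNIP3, at 30424 beside 20847 to 22359.9, and for the lactate exporter gene SLC16A3, at 15541 beside 9750 to 10243. The untreated library of horse W was high for the glycogen branching enzyme gene GBE1, at 1739 beside 1169 to 1235.

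Horse D was high in untreated cells for PDK2, at 2642 normalized counts beside 1597 to 1751, and for PGLS, at 3084 beside 2311 to 2417. Horse J was high in untreated cells for LDHB, at 10575 beside 6407 to 7015, and in treated cells for PFKFB4, at 317 beside 254 to 261.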

How the results depend on the processing

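The count of 22 members that passed as higher was 13 after total scaling, 11 at an adjusted p under 0.01, and between 7 and 21 when 1 horse was left out. The 9 that passed as lower became 5 at an adjusted p under 0.01 and 5 to 8 with 1 horse left out. Members called higher with the fold threshold numbered 4 to 9 with 1 horse left out. Over all genes, 1018 called higher became 567 at an adjusted p under 0.01 and 547 to 1143 with 1 horse left out. The 1090 called lower became 1832 after total scaling, 549 at an adjusted p under 0.01 and 533 to 1299 with 1 horse left out. Without the horse as a block, 20 members passed as higher and 8 as lower, and 834 and 875 genes were called. That fit lost ALDOA, GYS1, LDHB and PDK3 and gained ENO1, and it changed no other member's call. Why these counts moved was not tested, beyond the fewer samples or stricter threshold itself.

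Log2 changes reversed in sign only among members that had not passed. After total scaling they were -0.25 for PFKFB4, -0.27 for TKT and -0.15 for RPIA, where the median gene stood at -0.30. With 1 horse left out, the changes ranged from -0.15 to 0.14 for PFKM, -0.19 to 0.24 for PFKFB4, -0.23 to 0.13 for ENO2, -0.047 to 0.14 for TKT and -0.18 to 0.94 for DDIT4. The log2 ratio of LDHA to LDHB changed by -0.21 to 0.021. TMM and upper-quartile scaling and a pseudocount of 0.5 left all 45 members on the same side of the threshold, while a pseudocount of 5 lost GAPDH and the fit with no trend lost GYS1, PDK3 and PGD and gained ENO1. With 3 horses per group, the exact test of a ratio cannot reach the threshold. SLC2A4 could not be fitted at the filter of 50 normalized counts, and depth limits it and PDK4 in treated cells.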
